A study of Mus musculus with 4 samples.

Results

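The 10 endothelial genes described here were compared between 90-day-old (P90) and 30-day-old (P30) C57BL/6 mice, in RNA from colonic mucosa: the adhesion genes Pecam1, Cdh5 and Esam, the receptor kinases Kdr, Tek and Tie1, the co-receptor Eng, the receptor partner Ramp2, and the surface genes Plvap and Emcn. They were the genes of this list whose RefSeq accession a gene probe carried, and all 10 of 10 were found, on 11 probes of the 41174 on the array and among 20825 genes tested. The animals are described by strain and age alone, with no allele or treatment named, and the mucosa had been scraped from the colon and frozen before column extraction of total RNA. Each of 4 two-colour arrays, called a, b, e and k in the labels, took 1 P90 RNA and 1 P30 RNA together, so a ratio of P90 over P30 comes from within an array. On array e the P90 RNA carried the red dye Cy5, whereas on the other 3 arrays it carried the green dye Cy3. The labels describe the arrays as independent comparisons without tying an RNA to a particular mouse, so all p-values measure the spread between the 4 pairs, which may be partly technical.

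Endothelial cells line the blood and lymph vessels. In the colon the capillary network beneath the epithelium has pores closed by diaphragms, which Plvap protein builds. The cells are held together by adhesion proteins such as VE-cadherin, the product of Cdh5, and they survive and branch in response to VEGF, acting through Kdr, and to angiopoietins, acting through Tek. Many endothelial promoters carry binding sites of ETS-family transcription factors.

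On 3 of the 4 pairs most of the endothelial genes were lower at P90 than at P30, and on pair b all of them were higher. The mean over the 4 pairs lay below 0 (log2 P90/P30) for 8 of the 10 genes, as it did for 54.4% of all genes tested, and ranged from -0.87 for Emcn to 0.11 for Esam. None of the 10 passed limma's test at an adjusted p of 0.05, and neither did any gene on the array (0% of 20825, smallest adjusted p 0.617). At an unadjusted p under 0.05 limma counted 1645 genes in all (7.9%; 5.31% lower at P90) and 0 of the 10. For every one of the 10 the 4 P90 levels overlapped the 4 P30 levels; levels that did not overlap were found for 2.65% of all genes. In a piece of whole mucosa, a different share of endothelial cells and a different amount of RNA per endothelial cell cannot be told apart.

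The sign pattern, below 0 on arrays a, e and k and above 0 on b, was shown by 8 of the 10 genes and by 19.1% of all genes. Tek and Esam differed from it on array k alone. All 10 were above 0 on array b, against 48.2% of all genes, and all 10 were below 0 on array a (54% of all genes) and on e (50.5%). On array k 8 of the 10 were below 0, against 53.7% of all genes. No member had the same direction on all 4 arrays, which 14.1% of all genes did.

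**Figure D1:**
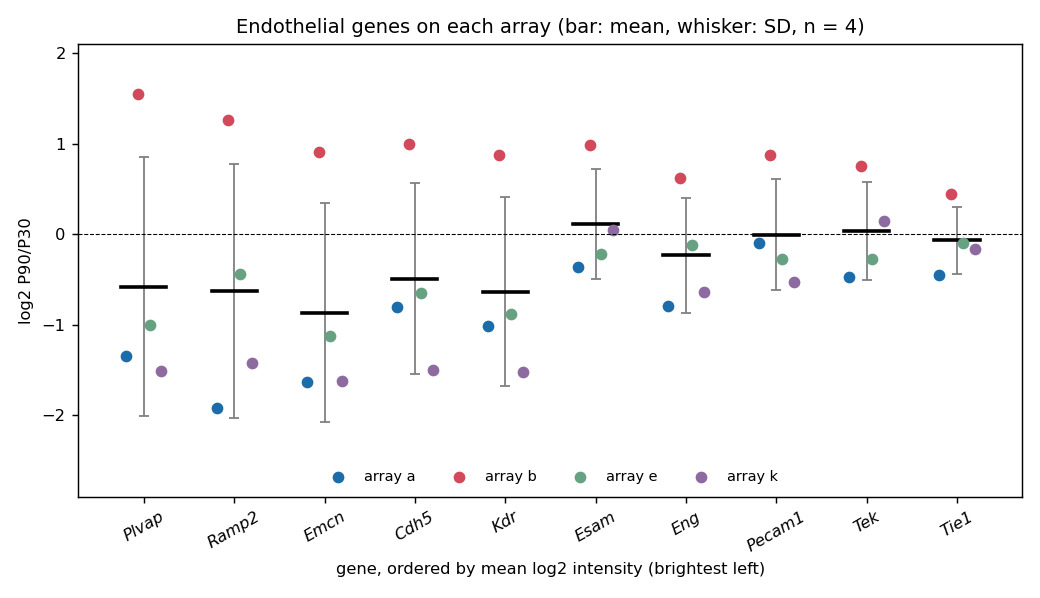
Ratio of P90 over P30 on a log2 scale (vertical) for each of the 10 endothelial genes (horizontal, brightest probe at left) on arrays a, b, e and k (coloured points), with the mean as a horizontal line and the SD as a whisker. The array b point is the highest for every gene, and the other 3 points lie below 0 for 8 of the 10.

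Over all 41174 probes, the ratios of array b correlated with those of array a at r = -0.30, with e at -0.27 and with k at -0.17, while the other 3 pairs of arrays correlated at 0.30 to 0.58. These are correlations across probes, which are not independent replicates. The labels state both dyes for every array, and array b has the same dye orientation as a and k, so the labelled direction was kept. With the sign of array b turned, all 10 genes had a mean below 0, their median moved from -0.36 to -0.76, and the smallest adjusted p among them was 0.0668 by limma. With array b left out the median was -0.75, all 10 were below 0 and the smallest adjusted p was 0.0802. In either setting 0 of all 20825 genes tested passed limma's adjusted test. All 10 genes were above 0 and highest on array b, so turning it or leaving it out had to lower every mean. Array b stood out in these same data, so the 2 adjusted p are a description. The share of spots well above background was 55.6% at P90 and 71.0% at P30 on array a, and 57.3% and 69.6% on k. On array e it was 65.4% and 64.6%, and on b 69.3% and 66.6%. The P90 share was thus the lower one on a and k, where the endothelial medians were lowest (-0.80 and -1.03), and the higher one on b, where the median was highest (0.89). On e the P90 share was also the higher one, and the endothelial median there was -0.36. The part of this signal difference in the endothelial ratios was not tested. All 4 arrays lay on 1 slide scanned on the same day, so no batch could be separated. The epithelial genes checked against the labelled tissue, the keratins Krt8 and Krt18, the tight junction gene Cldn7 and the galectin Lgals4, were saturated in both channels on all 4 arrays.

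Promoter windows were available for 5 of the 10 genes, Emcn, Eng, Kdr, Tek and Tie1, from RefSeq on assembly GRCm38.p6, running from 250 bases before to 50 bases after the gene's start. Those of Emcn and Kdr are shown because their ratios varied most over the arrays among the 5, and that of Tie1 because its ratio varied least. The sequences run 5′ to 3′ on the gene's strand, and capitals mark the letters AGGAAG or, on the other strand, CTTCCT, which hold the GGAA core that ETS factors bind.
Emcn, chr3:137340828-137341127, plus strand: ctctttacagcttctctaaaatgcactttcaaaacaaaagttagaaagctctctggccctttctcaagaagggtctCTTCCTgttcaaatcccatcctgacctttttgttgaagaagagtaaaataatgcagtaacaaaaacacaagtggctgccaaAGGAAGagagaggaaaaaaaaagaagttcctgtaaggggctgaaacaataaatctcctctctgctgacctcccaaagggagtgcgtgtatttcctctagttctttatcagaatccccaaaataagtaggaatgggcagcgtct
Kdr, chr5:75978406-75978705, minus strand: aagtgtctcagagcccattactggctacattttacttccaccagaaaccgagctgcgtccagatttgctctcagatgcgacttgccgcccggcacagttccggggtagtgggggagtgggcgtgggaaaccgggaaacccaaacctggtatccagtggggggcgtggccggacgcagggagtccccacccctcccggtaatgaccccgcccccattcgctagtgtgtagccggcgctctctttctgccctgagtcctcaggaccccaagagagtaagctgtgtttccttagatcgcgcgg
Tie1, chr4:118489800-118490099, minus strand: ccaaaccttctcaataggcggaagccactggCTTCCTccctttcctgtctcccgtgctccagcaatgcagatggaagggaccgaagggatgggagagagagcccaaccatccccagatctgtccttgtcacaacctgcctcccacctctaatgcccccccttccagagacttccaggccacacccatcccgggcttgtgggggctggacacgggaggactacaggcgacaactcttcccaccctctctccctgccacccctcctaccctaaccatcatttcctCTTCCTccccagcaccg
Searched on both strands, AGGAAG occurred in 3 of the 5 windows, Emcn, Eng and Tie1, with 2 matches in each, and in 35.4% of all 32851 mouse promoter windows of that length. In Emcn the matches began at -174 and -93 relative to the start. Its shorter core GGAA, which AGGAAG contains, occurred in all 5 windows and in 96.0% of all windows. AGATAA, the letters bound by GATA factors, occurred in Tek alone, at 36 after the start, and in 11.2% of all windows. The GC box GGGCGG had 2 matches in Kdr and none in the other windows of the 5, and occurred in 35.7% of all windows, and TATAAA in 0 of the 5 and in 13.6% of all windows. The Emcn window had a GC content of 41% with 2 CpG pairs, the Kdr window 60.67% with 19 and the Tie1 window 60.33% with 7, against medians of 52.67% and 7 over all windows. A match is a run of letters in the window and no evidence of binding.

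Among the junction and adhesion genes, Cdh5 encodes the cadherin of endothelial adherens junctions. Its log2 P90/P30 read -0.81, 0.99, -0.65 and -1.50 on a, b, e and k, with a mean of -0.49 ± 1.05 (SD, n = 4) and a limma adjusted p of 0.778. It was lower at P90 on 3 pairs and 1.99-fold higher on pair b, so the spread exceeded the mean. A second, dimmer Cdh5 probe gave -0.27, 0.56, -0.10 and 0.045, with a mean of 0.056 ± 0.36, and passed the scanner's background test at P90 on 2 of the 4 arrays. Both Cdh5 probes were highest on array b, and they differed in sign on array k. At P90 the brighter probe had a signal of 86 over a local background of 43 on a, and 74 over 36 on k. Its ratio on k was -3.45 in the deposited value table.

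Pecam1 encodes PECAM-1 (CD31), an adhesion molecule of endothelial cells that platelets and leukocytes also carry. It read -0.10, 0.87, -0.28 and -0.53 on arrays a, b, e and k, with a mean of -0.0071 ± 0.61 (SD, n = 4) and an adjusted p of 0.997 by limma. Its ratio on array a was the nearest to 0 of the 10 genes there. Esam, an immunoglobulin-family adhesion molecule of endothelial tight junctions, read -0.36, 0.99, -0.22 and 0.042, with a mean of 0.11 ± 0.61 and an adjusted p of 0.946. It lay above the median of the 10 genes on all 4 arrays, by 0.43 ± 0.45 on average.

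Kdr encodes VEGF receptor 2, the main signalling receptor for VEGF-A. Its log2 P90/P30 read -1.01, 0.88, -0.88 and -1.52 on a, b, e and k, a mean of -0.63 ± 1.04 (SD, n = 4) with a limma adjusted p of 0.697. It lay below the median of the 10 genes on all 4 arrays, with a mean difference of -0.31 ± 0.24. The Kdr and Pecam1 probes were each printed 10 times per array. Over the Kdr spots used on each array (9 or 10) the SD was 0.095, 0.049, 0.087 and 0.14 on a, b, e and k. All Kdr spots of an array had the same sign, 10 of 10 above 0 on b and 0 of 10 on a and e and 0 of 9 on k. For Pecam1, with 9 spots used on each array, the SD over spots was 0.053, 0.097, 0.12 and 0.11, and again all spots of an array shared a sign. Repeat spots share the RNA and the labelling, so they show the precision of a reading within an array and bear in no way on the age comparison.

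**Figure D2:**
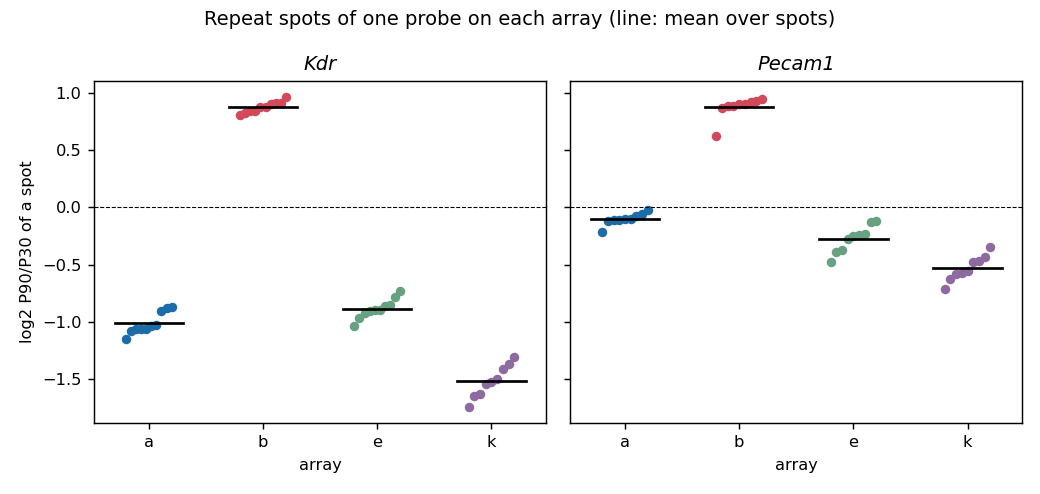
Log2 P90/P30 of each repeat spot (points) of the Kdr probe (left) and the Pecam1 probe (right) on arrays a, b, e and k (horizontal), with the mean over spots as a line. Kdr spots sit between 0.81 and 0.97 on array b and between -1.74 and -0.73 on the other arrays; Pecam1 spots sit between 0.62 and 0.94 on b and between -0.71 and -0.020 elsewhere.

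Tek and Tie1 encode the angiopoietin receptor Tie2 and its orphan partner Tie1. Tek read -0.47, 0.75, -0.27 and 0.14 on a, b, e and k, with a mean of 0.037 ± 0.54 (SD, n = 4) and a limma adjusted p of 0.987. Tie1 read -0.45, 0.44, -0.097 and -0.16, with a mean of -0.067 ± 0.37 and an adjusted p of 0.955. Both probes were dim. Tek was well above background on 3 of the 4 arrays in either channel, and Tie1 on 2 arrays at P90 and on 4 at P30. On array a the Tie1 spot had a median signal of 58 at P90 over a local background of 45, and 120 at P30 over 67. On array b it had 145 over 44 and 99 over 60. The array a P90 reading thus lay close to its background, and the ratio there depended on how that background was treated: with a normexp offset of 10 in place of 50 it was -1.08 in place of -0.45. Low P90 signals were not limited to these genes. Eng had 76.5 over 47 on a and 77 over 40 on k, and Pecam1 had 77.25 over 40.25 on k.

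Eng encodes endoglin, a co-receptor for BMP9 and TGF-β family ligands on endothelial cells. It read -0.79, 0.62, -0.12 and -0.64 on a, b, e and k, with a mean of -0.23 ± 0.63 (SD, n = 4) and a limma adjusted p of 0.850. Its values stayed nearest to the median profile of the 10 genes, with a root mean square difference of 0.27 over the 4 arrays, followed by Cdh5 at 0.28. Ramp2, which joins the calcitonin receptor-like receptor to form the adrenomedullin receptor, read -1.92, 1.26, -0.44 and -1.42, with a mean of -0.63 ± 1.40 and an adjusted p of 0.782. Ramp2 was the lowest of the 10 on array a.

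Plvap encodes the protein of fenestral and caveolar diaphragms. Its level, the log2 intensity of each channel after normalization, was 8.82, 10.90, 10.63 and 8.47 in the P90 RNA of arrays a, b, e and k, and 10.17, 9.36, 11.63 and 9.99 in the P30 RNA. The P90 levels of arrays a and k were the lowest of the 8, the P30 level of e was the highest, and the ages overlapped. The ratios were -1.34, 1.54, -1.002 and -1.52 (log2 P90/P30), a mean of -0.58 ± 1.43 (SD, n = 4) with a limma adjusted p of 0.812. Plvap was the highest of the 10 on array b, where it was 2.92-fold higher at P90.

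Emcn encodes endomucin, a sialomucin of capillary and venous endothelium whose mean was the lowest of the 10 under the main processing. With array b turned Plvap was lower (-1.35 against -1.32). Ramp2 was lower without b and e (-1.67 against -1.63) and with array e given the sign rule of the others (-0.41 against -0.31). Kdr was lower on processed signals (-1.28 against -1.15), on deposited log ratios (-1.39 against -1.25) and in the value table (-1.41 against -1.25). The median spot signal of Emcn on array a was 133 at P90 and 1233 at P30, over local backgrounds of 47 and 70. On array k it was 99 at P90 and 564 at P30. On array b it was 893.5 at P90 and 424 at P30, and on e 645 at P90 and 1551 at P30. The P90 signal was the smaller one on a, e and k and the larger one on b, before any correction; signals of different dyes are not on 1 scale. The normalized ratios were -1.64, 0.91, -1.12 and -1.62 (log2 P90/P30), a mean of -0.87 ± 1.21 (SD, n = 4; SE 0.45), with an unadjusted p of 0.105 and an adjusted p of 0.653 in limma's fit. Without array b the Emcn mean was -1.46 ± 0.29 (n = 3).

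Under the main processing the spread over arrays was larger for the brighter probes. The brightness of a probe is no measure of one gene's abundance against another's. The 5 brighter probes (Plvap, Ramp2, Emcn, Cdh5 and Kdr), with mean log2 intensities of 8.004 to 10.003, had SDs of 1.04 to 1.43 and means of -0.87 to -0.49. The 5 dimmer ones (Esam, Eng, Pecam1, Tek and Tie1), at 6.62 to 7.68, had SDs of 0.37 to 0.63 and means of -0.23 to 0.11. An offset added to both channels draws the ratios of dim spots towards 0. In the series' deposited value table, which has no such offset, the SDs of the dimmer genes were 1.08 for Esam, 1.45 for Eng, 1.26 for Pecam1, 1.64 for Tek and 1.39 for Tie1, and their means were -0.056, -0.76, -0.24, -0.53 and -0.50. Among the brighter genes Kdr had an SD of 2.14 and a mean of -1.41 in that table, and Cdh5 an SD of 2.06 and a mean of -1.17. Plvap, Ramp2 and Emcn had SDs of 1.55, 1.70 and 1.65 and means of -0.73, -0.79 and -1.25. Kdr, Cdh5, Ramp2 and Emcn had larger SDs in that table than any of the 5 dimmer genes. The brightest, Plvap, lay below Tek, so the SDs did not strictly follow brightness. In that table the sign pattern held for all 10 genes: Tek read -0.95 and Esam -0.29 on array k.

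The channel levels show on which side array b differed. By the labels, arrays a, b and k share a dye orientation and can be set side by side. The P90 level on array b was above those on a and k for all 10 genes (32.9% of all genes), and the P30 level on b was below those on a and k for 8 of the 10 (29.9% of all genes). The median over the 10 genes of the b level minus the mean of a and k was 1.03 at P90 and -0.60 at P30, on the log2 scale, against -0.025 and -0.020 over all genes. The P90 levels spanned a wider range over the 4 arrays than the P30 levels for 5 of the 10 genes, near the 56.8% of all genes. Pecam1 at P30 was 7.28, 7.002, 7.27 and 7.29 on a, b, e and k, and at P90 7.18, 7.88, 6.99 and 6.77. Its P30 levels lay close together apart from b, its P90 level was highest on b, and the ages overlapped. Cdh5 at P30 was 8.01, 7.19, 10.1 and 8.43, and at P90 7.20, 8.18, 9.45 and 6.94. Array e held the highest level of Cdh5 at both ages.

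Both ages were bright on array e for several members. The P30 level was highest on e for 8 of the 10 genes and the P90 level for 6 of the 10, against 20.7% of all genes in each case. Relative to the mean of the other arrays of the same age, the level on e was higher by a median of 1.35 at P30 and 1.21 at P90 over the 10 genes, against -0.034 and 0.0040 over all genes. Ramp2 on e stood 1.83 above the other arrays at P30 and 2.07 above them at P90, and for Pecam1 the differences were 0.073 and -0.28. Array e alone has exchanged dyes. The part of its dye orientation and of its RNA pair in these levels was not tested. The ratio on e also carries any dye effect in the opposite direction from the other arrays.

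**Figure D3:**
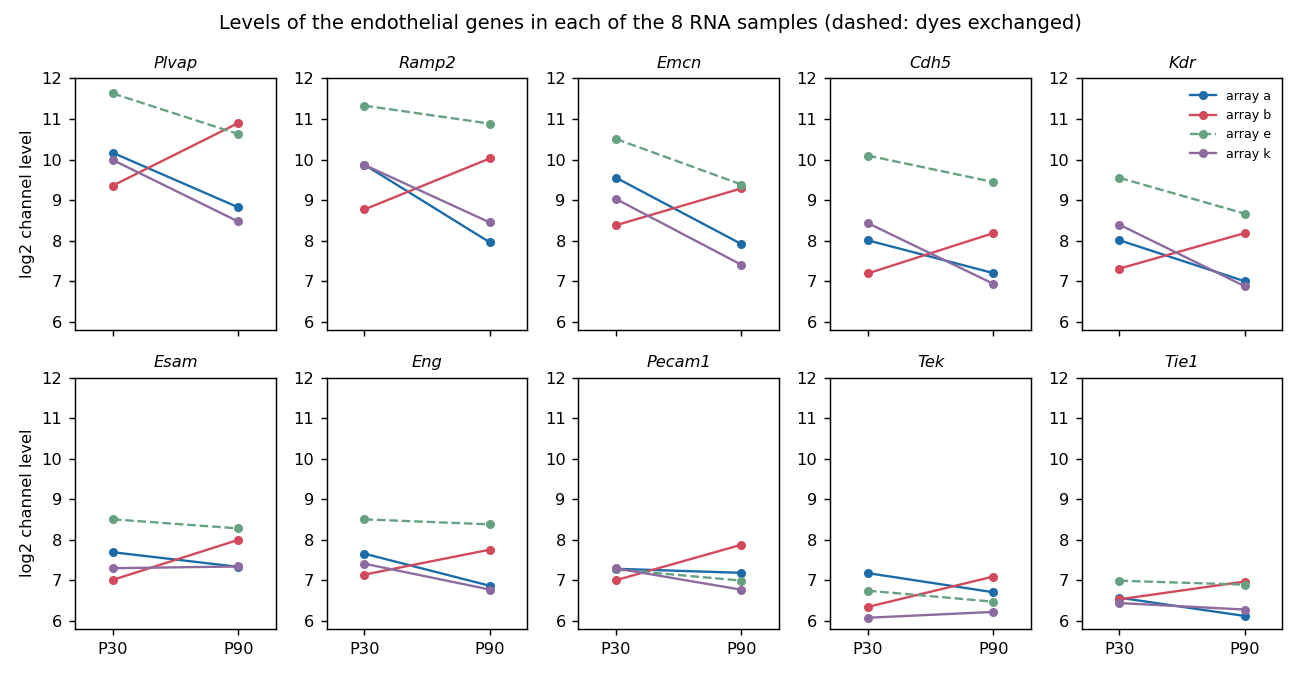
Level of each endothelial gene (log2 channel intensity after normalization, vertical) in the P30 and P90 RNA (horizontal), with a line joining the RNAs of 1 array. The line of array b climbs from P30 to P90 in all 10 panels; array e (dashed, exchanged dyes) lies highest at P30 in 8 of them.

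The 10 genes also differed among themselves within each array. Their median log2 P90/P30 was -0.80, 0.89, -0.36 and -1.03 on a, b, e and k, and their SD across genes was 0.59, 0.31, 0.38 and 0.72. The medians of all genes were -0.041, -0.017, -0.0042 and -0.030. The median of the 10 stood at the 12.9, 95.8, 21.5 and 4.20 percentile of all genes on a, b, e and k, so it was more extreme on b and k than on a and e. The 10 genes lay closest together on array b, from 0.44 for Tie1 to 1.54 for Plvap.

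Genes with the most similar profile were sought by the root mean square difference from the median of the 10 genes over the 4 arrays, among 13897 genes with a symbol. The nearest was Grhl1, a grainyhead-like transcription factor, at 0.076, with -0.83, 0.76, -0.29 and -1.04 on a, b, e and k. Next came Icam2, an adhesion molecule of endothelial cells and leukocytes, at 0.089, with -0.78, 0.89, -0.43 and -0.87. Sphk1 (sphingosine kinase) followed at 0.098, Papss2 (a sulfate-donor synthase) at 0.11 and Fam20a at 0.12. Of these 5, Icam2 alone was on any of the vascular lists, and 141 genes lay within 0.3. The likeness rests on 4 arrays.

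Other genes of the members' pathways and of vessels were taken from 10 vascular lists with 111 genes, of which 97 were measured. The lists include basement membrane and mural cell genes, so they are not endothelial alone. Of the 97, 74 had a mean below 0 and 23 above, 0 passed limma's adjusted test in either direction, and 55 (56.7%) had the sign pattern of the members. The 55 include all 10 basement membrane genes. Over all genes tested, 54.4% had a mean below 0. At an unadjusted p under 0.05 limma counted 3 of the 97 lower and 2 higher, no larger a share than over all genes (5.31% lower, 7.9% in either direction).

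Among the ligands and receptors of VEGF, 8 of 9 were measured (not Flt4), 4 lower and 4 higher, with a median mean of -0.058. Flt1, VEGF receptor 1 and a decoy for VEGF-A, read -1.17, 2.30, -0.60 and -2.33 on the arrays in the same order. Flt1 was named after its values were seen; its range was wider than that of Kdr. The brightest probes were those of Nrp2, a neuropilin co-receptor, at -1.48, -0.097, -1.89 and -0.59 (mean -1.01 ± 0.82, SD, n = 4), and of the ligand Vegfb at 0.28 ± 0.51. Vegfc, the lymphangiogenic ligand, read -0.93, -0.31, -1.21 and -0.73, a mean of -0.79 ± 0.38. Nrp2 and Vegfc were below 0 on all 4 arrays, array b included, at unadjusted p of 0.0199 and 0.00479 and an adjusted p of 0.617 each in limma's fit.

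Of the angiopoietin pathway 2 of 4 genes were measured (not Angpt1 or Angpt4). Angpt2, an angiopoietin released by endothelial cells, read -0.54, -0.11, -0.95 and -0.83 on a, b, e and k, a mean of -0.61 ± 0.38 (SD, n = 4) with an unadjusted p of 0.0152 and an adjusted p of 0.617 by limma. It too was below 0 on all 4 arrays, unlike its receptor Tek. Ptprb, the endothelial phosphatase VE-PTP that acts on Tek, read -0.87, 1.01, -0.57 and -1.20 and had the members' sign pattern. Vegfc was picked for its p after all values were seen, so that p is a description; Angpt2 and Nrp2 had been named for their bright probes.

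In the endoglin pathway 7 of 10 genes were measured (not Gdf2, Bmp10 or Tgfbr3), with 4 means below 0 and a median of -0.0053. The brightest were Id1, a target of BMP signalling, at -0.0053 ± 0.87 (SD, n = 4), and Tgfbr2, the type II TGF-β receptor, at -0.086 ± 0.48. In the adrenomedullin pathway 6 of 7 were measured (not Adm2), 3 below 0, with a median of 0.035. Calcrl, the receptor that Ramp2 partners and that was named after its values were seen, read -1.42, 1.48, -0.51 and -0.48 on a, b, e and k and had the sign pattern of Ramp2. The ligand Adm read 1.26, -0.37, 1.03 and -1.13, and Ramp1, the partner for the CGRP receptor, had a mean of 0.13 ± 0.86. Calcb, a CGRP gene with a dim probe, also picked for its p, was above 0 on all 4 arrays at 0.88, 0.59, 0.76 and 0.21, with a mean of 0.61 ± 0.29, an unadjusted p of 0.00828 and an adjusted p of 0.617 by limma. Its mean was 1.19 with the smaller offset, 2.30 on processed signals and 2.21 on deposited log ratios, so its size rested on the background treatment.

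Of 29 other endothelial surface and junction genes 27 were measured (not Adgrl4 or Sele), 22 had a mean below 0, and 16 had the members' sign pattern. Their list medians were -0.78, 0.88, -0.35 and -0.86 on a, b, e and k, beside -0.80, 0.89, -0.36 and -1.03 for the members. The brightest, the caveolar gene Cav1 and the sialomucin Cd34, had means of -1.03 ± 2.13 and -1.12 ± 1.97 (SD, n = 4). A second Cav1 probe had a mean of -0.090, and the mean of both was -0.56. Without array k Cav1 was -0.34 and Cd34 -0.45, and without b -1.89 and -1.99. Of 18 endothelial transcription factors 16 were measured (not Erg or Tal1). Of these, 14 had a mean below 0 and 12 the members' pattern, with medians of -0.43, 0.49, -0.15 and -0.39. Without Klf2 and Klf4, which were saturated on some array, the medians were -0.46, 0.64, -0.20 and -0.39. The brightest of the 16 were Klf4, saturated in the P30 channel on all 4 arrays and given without a value, and Epas1 (HIF-2α) at -0.065 ± 0.61.

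Notch and arteriovenous genes numbered 9 of 10 measured (not Hey2), with 6 means below 0, 4 with the members' pattern and a median of -0.14. Efnb2, the arterial ephrin, had a mean of -0.56 ± 0.89 (SD, n = 4) and Ephb4, its venous receptor, 0.066 ± 0.35. A second Efnb2 probe had a mean of -0.053, and the mean of both was -0.31. Of 6 lymphatic endothelial genes 4 were measured (not Prox1 or Mmrn1), and all 4 had the members' pattern. The hyaluronan receptor Lyve1 had a mean of -0.81 ± 1.21 and the chemokine Ccl21a -0.72 ± 1.19. A second Lyve1 probe had a mean of -0.084, and the mean of both was -0.45. All 10 vascular basement membrane genes were measured and all had the members' pattern, with medians of -1.91, 1.17, -1.05 and -1.37 on a, b, e and k. The perlecan gene Hspg2 had a mean of -0.21 ± 0.86 and the matricellular gene Sparcl1 -0.86 ± 2.24. Of the 8 genes on the list for mural cells, such as the pericytes around capillaries, 5 had a mean below 0 and 3 the members' pattern. The receptor Pdgfrb had a mean of 0.024 ± 0.54 and the channel gene Kcnj8 -0.062 ± 1.28. Des, picked for its p after its values were seen, read 2.44, 0.85, 1.68 and -0.41 on a, b, e and k. Its mean was 1.14 ± 1.22, with an unadjusted p of 0.0486 and an adjusted p of 0.627 by limma.

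Genes of other cells in the mucosa varied over the same arrays. Of the 16 fibroblast and matrix genes 15 were measured (not Col6a3), all 15 had the members' sign pattern, and their medians were -2.92, 1.27, -1.36 and -2.42 on a, b, e and k. Their summed level on the log2 scale ran from 11.7 to 15.1 over the P90 RNAs and from 13.7 to 16.7 over the P30 RNAs. The summed level of the 10 endothelial genes ran from 10.7 to 12.6 at P90 and from 11.2 to 13.3 at P30. Of the 12 myeloid genes 11 were measured (not Cd68) and 10 had the members' pattern, with medians of -0.80, 0.89, -0.34 and -0.27 and a summed level of 12.16 to 12.96 at P90 and 12.2 to 13.2 at P30. The medians of the 6 platelet genes, all measured, were 0.033, 0.065, -0.26 and 0.025, with 2 of the 6 in the pattern and a summed level of 9.55 to 10.8 at P90 and 9.78 to 11.99 at P30. The fibroblast and matrix list thus had the sign pattern of the endothelial genes with larger medians on every array, and the myeloid list had medians near theirs on a, b and e. The platelet medians did not have the pattern, but the genes of that list differed. The brightest, Pf4, read -1.87, 0.71, -1.45 and -2.27 on a, b, e and k. The next brightest, Gp1bb, read 0.16, -0.12, 0.63 and 0.39. The part of fibroblasts and myeloid cells in the endothelial ratios was not tested.

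Smooth muscle genes, 9 of 10 measured (not Synpo2), had medians of 0.19, 0.80, 0.25 and -1.22 on a, b, e and k, with 2 of 9 in the members' pattern and a summed level of 14.2 to 15.8 at P90 and 14.9 to 15.1 at P30. Adipocyte genes, 8 of 9 measured (not Lep), were high at P90 on array e: their medians were 0.15, 2.20, 5.45 and 0.45, with 0 of 8 in the pattern and a summed level of 12.6 to 17.6 at P90 and 11.9 to 13.6 at P30. Those values include Cfd and Fabp4, which were saturated on some array. Without the pair the medians were 0.15, 1.88, 5.45 and 0.45, and the summed level 12.2 to 16.2 at P90 and 11.5 to 13.2 at P30. On array e, where the adipocyte median was 5.45, the endothelial median was -0.36. Of the 12 epithelial genes 4 were saturated throughout and 5 on some array, Krt19 and Vil1 in the P30 channel on all 4, so their ratios are not given. The 3 that were never saturated, Epcam, Tspan8 and Slc26a3, had medians of -0.40, 0.16, -0.42 and -0.71, with 2 of 3 in the pattern and a summed level of 15.4 to 16.3 at P90 and 16.1 to 16.5 at P30. The part of smooth muscle, fat and epithelium in the endothelial values was not tested.

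**Figure D4:**
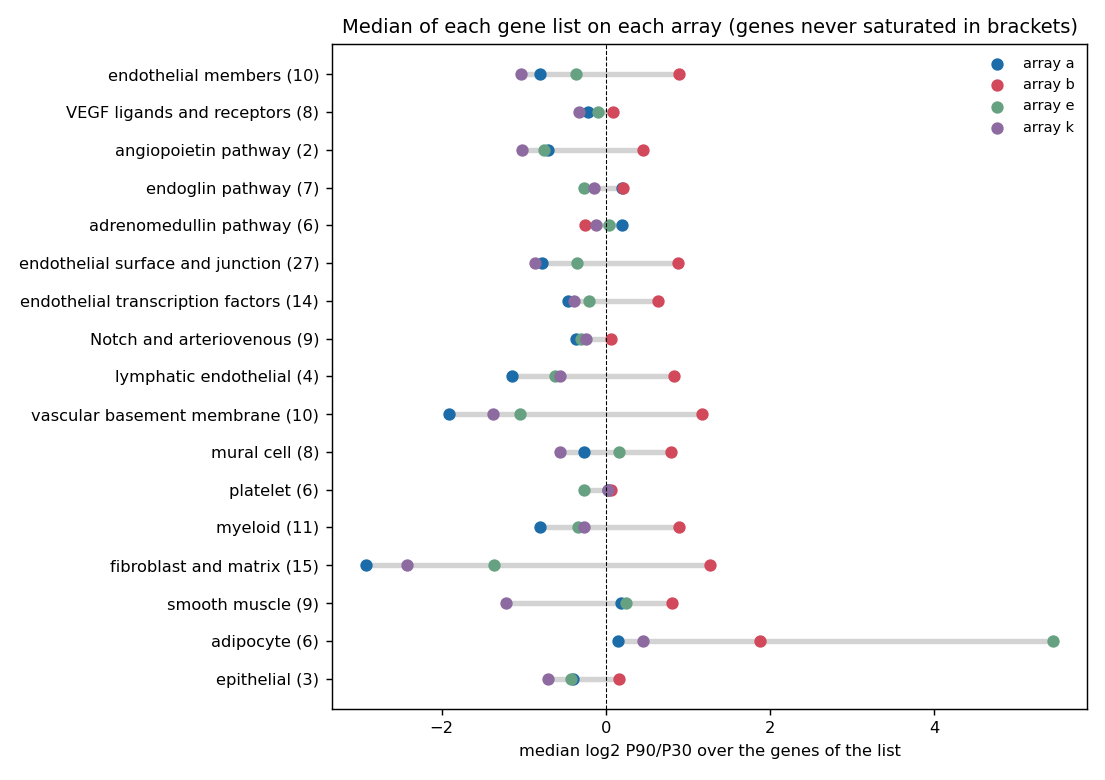
Median log2 P90/P30 (horizontal) of the 10 endothelial genes and of 16 other gene lists (vertical; the number of genes in brackets, those saturated on any array left out) on arrays a, b, e and k (points; the grey bar spans their range). The endothelial median ran from -1.03 on k to 0.89 on b, the fibroblast and matrix median from -2.92 on a to 1.27 on b, and the adipocyte median reached 5.45 on e.

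Across 21 other ways of processing the arrays, 0 of the 10 endothelial genes passed limma's adjusted test. The median of their means stayed below 0. The 21 were not all separate trials. Aquantile between arrays, no filter on dim probes, leaving out saturated spots and a variance trend left the members' main means unchanged. The deposited log ratios and the value table gave nearly equal medians, both -0.75. The lowest median, -0.93, came when b and e were both dropped. The highest, -0.12, came with array e given the sign rule of the other 3 arrays. Leaving out array a or k gave a median of -0.13 in each case, leaving out b -0.75 and leaving out e -0.35, so the size of the median rested on single arrays. Cdh5, Kdr, Plvap, Ramp2, Eng and Emcn kept a mean below 0 under all 21, whereas Pecam1, Tek, Tie1 and Esam did not. The sizes of those 6 also rested on single arrays. Leaving out 1 array at a time, the mean ranged from -0.99 (without b) to -0.16 (without k) for Cdh5, from -1.14 (b) to -0.34 (k) for Kdr and from -1.29 (b) to -0.27 (k) for Plvap. It ranged from -1.26 (b) to -0.20 (a) for Ramp2, from -0.52 (b) to -0.049 (a) for Eng and from -1.46 (b) to -0.61 (a) for Emcn. With array e given the sign rule of the others Plvap was -0.079, Kdr -0.19, Emcn -0.31 and Cdh5 -0.16.

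**Figure D5:**
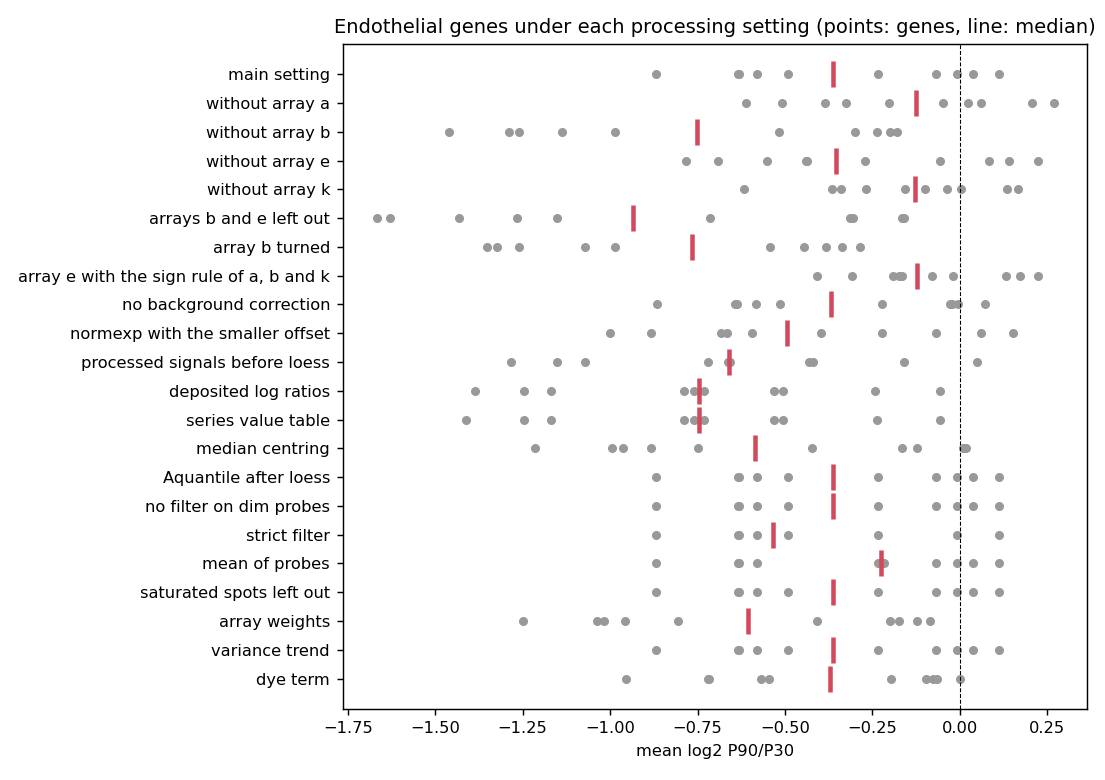
Mean log2 P90/P30 (horizontal) of each endothelial gene (grey points) and their median (red line) under the main setting and 21 alternatives (vertical). The median lies between -0.93 and -0.12 and never reaches 0.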

How the data were processed

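The deposited files of each array give, per the file headers, linear intensity: the median brightness of a spot and of its surroundings in both channels, not yet normalized. They also hold the authors' log10 ratio of red to green processed signals, which were scaled per dye, per the file headers. The deposited value table holds log2 P90/P30: it lay within 0.01 of that ratio, turned to log2 with P90 on top, for 80.0 to 87.0% of probes per array, with column medians of 0.21, -0.17, 0.049 and 0.17 on a, b, e and k. Outlier, background and saturation marks (other) came from the deposited scanner files. The headers name Agilent Feature Extraction 10.5.1.1, the submitters' processing notes 8.5.1.1.

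Background was corrected with normexp (offset 50), followed by loess within arrays (span 0.3; control spots at no weight), in limma 3.58.1 under R 4.3.3. Outlier spots were dropped, and saturated ones kept. Probes well above background in either age on at least 3 arrays were kept (27055, or 65.7%), and the brightest probe stood for its gene. Channel levels were taken after Aquantile between arrays. The mean of 4 arrays was tested against 0 with lmFit and eBayes, with Benjamini-Hochberg adjustment over 20825 genes. The number of arrays limits precision. The test was also run on simulated independent arrays with changes larger than the members' means, which does not show how it performs on these arrays. Probes were named through RefSeq accessions; the array's own build is mm9, so gene positions are not given.

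The members and all lists were chosen with earlier results of these data known. Named genes were all members, the 2 brightest of each list outside the members, the 5 nearest profiles, and others marked as picked afterwards. For the lists of other cell types, medians and counts stand in for these names, apart from the 2 brightest platelet genes.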

Additional observations from a re-analysis of the deposited data

Results flagged for a closer look

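Of 93 sets of 4 values, 3 held a value that stood far from the rest. The sets included members' ratios, their P90 and P30 levels, and lists' medians. In those 3 the gap from the value to its neighbour, over the range of the set, was above Dixon's limit for 4 values. Chance gives about 1 in 20 sets, so 3 of 93 is no more than that. The sets are not independent, since ratios and levels share the same signals, so this share is only a guide. The P30 level of Pecam1 on array b, 7.002 on the log2 scale, lay below the other 3 P30 levels, with a gap share of 0.907. The log2 P90/P30 of Plvap on array b, 1.54, lay above the other 3, with a share of 0.832. The median log2 P90/P30 of the platelet list on array e, -0.26, lay below the other 3, with a share of 0.877.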

How the results depend on the processing

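With 21 alternatives, 0 members and 0 member probes passed limma's adjusted test in any. Genes called went from 0 to 2, both higher at P90, with the smaller offset, the processed signals, the deposited log ratios and the value table (2 each), and stayed at 0 in the others. The strict filter left 8 of the 10 members. Median centring moved the median of all genes from -0.020 to -0.21 and the members' median to -0.59. Of the members, 6 kept their direction throughout. The test of ratios within arrays is itself the paired analysis of the 4 RNA pairs, so no further block was fitted.

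Of the other 4 members, leaving out 1 array at a time gave means between -0.30 and 0.17 for Pecam1, -0.20 and 0.21 for Tek, -0.24 and 0.061 for Tie1, and -0.18 and 0.27 for Esam. With array e read by the sign rule of the others, Pecam1 was 0.13. Tek was -0.16 without b and e, -0.34 with b turned, -0.021 without background correction, -0.42 on processed signals, -0.53 on deposited log ratios and the value table alike, -0.12 with array weights and -0.065 with a dye term. Tie1 was 0.0099 with median centring. Esam was -0.16 without b and e, -0.38 with b turned, -0.056 on deposited log ratios and the value table alike, -0.12 with median centring, -0.085 with array weights and -0.00096 with a dye term.

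Leaving out the epithelial genes saturated on any array, an alternative chosen after seeing the data, moved that list's median from 0.046 to -0.34; dropping saturated spots alone gave -0.21. Among the other genes named, the direction changed as follows. With median centring Vegfb was -0.097, Ramp1 -0.26, Adm -0.17, Ephb4 -0.34 and Pdgfrb -0.35. With array e read by the sign rule of the others, Tgfbr2 was 0.18, Adm -0.32, Calcrl 0.023, Lyve1 0.024, Hspg2 0.15 and Pdgfrb -0.051. With b turned Id1 was 0.29 and Pdgfrb -0.34; without b and e Pdgfrb was -0.39. On deposited log ratios and on the value table Id1 was 0.16 and Epas1 0.084. With the mean of probes Id1 was 0.025, Tgfbr2 0.0057, Epas1 0.079 and Kcnj8 0.0013. With array weights Id1 was 0.16 and Pdgfrb -0.12. With a dye term Id1 was 0.34, Ramp1 -0.045, Epas1 0.0039 and Kcnj8 0.097. Leaving out 1 array at a time gave these ranges: Flt1 -1.37 to 0.18, Id1 -0.35 to 0.28, Tgfbr2 -0.31 to 0.064, Ramp1 -0.27 to 0.38, Adm -0.15 to 0.64, Calcrl -0.80 to 0.16, Epas1 -0.32 to 0.12, Ephb4 -0.076 to 0.21, Pdgfrb -0.21 to 0.16 and Kcnj8 -0.47 to 0.53. The cause of these changes was not tested.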
